A study of Rattus norvegicus and Bos taurus with 6 samples.

Results

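The cytosolic ribosomal protein genes code for the proteins of the large (60S) and small (40S) subunits of the ribosome. Members were chosen by symbol, as Rpl or Rps followed by a number with an optional letter, or Rplp0 to Rplp2 or Rpsa, without -ps pseudogenes and without the Rps6k kinases. The rule uses no measured value. It found 81 symbols among 63342 symbols or gene IDs over 6 single-nucleus RNA-seq libraries, and 52 of the 81 were in the gene lists of all 6 libraries.

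There was 1 library per condition and no replicate. The libraries were mesPVAT (mesenteric perivascular fat, a white depot) of male Dahl SS rats (SS/HsdMcwiCrl) on the 10x Genomics 3' kit, and mesPVAT, RP fat (retroperitoneal, a white depot), taPVAT (thoracic aorta perivascular fat, a brown depot) and subscapular BAT of the same strain on the Parse Evercode kit. The last was subcutaneous white fat (cow WAT) of female, lactating Holstein cows on the Parse kit. All tissue was snap frozen. The age of the animals and the number of animals in each library were not given in the sources used here. The 10x library was labelled batch 1 and the Parse libraries batch 2, and the 10x nuclei were isolated with another protocol and sorted for DAPI. Kit, isolation, sort, batch and gene annotation therefore cannot be told apart in that comparison. The Parse isolations also differed: the study gives a lower centrifuge speed for taPVAT than for rat and cow white fat, and none for BAT. For the cow it gives a further, finer filter and more tissue. These steps cannot be told apart from depot or species. The libraries held 2297 to 5887 nuclei and 845316 to 16827260 UMIs (transcripts), with a median of 161 UMIs per nucleus in 10x mesPVAT and 3530 UMIs in cow WAT. No cell barcode was shared between any pair of libraries, and doublets were not removed. The adipocyte gene Plin1 was counted in all 6 libraries, and Ucp1, the brown fat uncoupling protein, had 1782 CPM (UMIs per 1000000 UMIs of the library) in taPVAT and 2072 CPM in BAT against 0.808 to 89.9 CPM in the white rat libraries.

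Each ribosome needs most of its proteins in equal numbers. The mRNAs of ribosomal proteins share a run of C and T at the 5′ end, the TOP motif (terminal oligopyrimidine), through which mTOR signalling controls their translation. The genes are short, are transcribed in nearly every cell, and many carry small nucleolar RNAs (snoRNAs) in their introns. Mature ribosomal protein mRNA is abundant in the cytoplasm, whereas a nucleus holds newly made transcripts, so the share of UMIs on these genes is commonly read in nuclei preparations beside that of the mitochondrially encoded genes.

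The start regions of 6 members with many UMIs are shown, from 30 bases before to 20 bases after the RefSeq start in GRCr8. Capitals mark the longest run of at least 6 C or T in the printed stretch.

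Rpsa (chr8:128728849-128728898, + strand): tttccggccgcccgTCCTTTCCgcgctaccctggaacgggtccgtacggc
Rplp2 (chr1:205975891-205975940, + strand): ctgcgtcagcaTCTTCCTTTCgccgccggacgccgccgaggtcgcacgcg
Rplp0 (chr12:46718371-46718420, − strand): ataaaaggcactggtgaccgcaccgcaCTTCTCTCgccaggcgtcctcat
Rpl4 (chr8:73566447-73566496, + strand): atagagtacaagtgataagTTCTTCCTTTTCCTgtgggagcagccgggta
Rpl13a (chr1:104748894-104748943, − strand): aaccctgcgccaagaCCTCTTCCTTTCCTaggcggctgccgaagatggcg
Rpl3 (chr7:113507971-113508020, − strand): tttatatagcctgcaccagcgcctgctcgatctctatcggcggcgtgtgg

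The Rpl3 stretch held no such run. In Rpsa and Rplp2 the run began at −16 and −19 from the RefSeq start, was 8 and 10 bases long and ended before that start. Fewer than 6 bases of each lay within 12 bases of the start, so neither counts in the search that follows. RefSeq gave a start region for 64 of the 81 symbols, in 65 windows of 300 bases. A run of at least 6 C or T on the gene's strand within 12 bases of the start was in 47 of 65 member windows (72.3%) and in 23.0% of all 33469 windows. The same search on the other strand, which is a run of A and G as read on the gene's strand, found 9 of 65 (13.8%) against 26.5% of all windows. CTTCCG on either strand anywhere in the window, which overlaps the C and T run where it lies at the start, was in 35 of 65 (53.8%) and in 16.6% of all windows. These matches describe letters and are no sites.

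The share of UMIs on ribosomal protein genes was below 1% in every library. It was highest in 10x mesPVAT, where 8213 of 1237543 UMIs gave 0.664% (95% exact binomial interval 0.649 to 0.678), and lowest in cow WAT at 0.0561% (0.0550 to 0.0573). Among the rat Parse libraries it was 0.127% (0.122 to 0.133) in mesPVAT, 0.106% (0.103 to 0.108) in taPVAT, 0.103% (0.0961 to 0.110) in RP fat and 0.0804% (0.0782 to 0.0827) in BAT. The 10x share was 5.21 times that of mesPVAT on the Parse kit (4.96 to 5.46) and 11.8 times that of cow WAT (11.5 to 12.2). In nuclei with at least 500 UMIs these ratios were 3.16 (2.91 to 3.44), with shares of 0.426% and 0.135%, and 7.59 (7.07 to 8.13). RP fat and taPVAT were neighbours in the order whose intervals overlapped. The order within the rat Parse libraries changed with the measure: as the mean over nuclei taPVAT, at 0.124%, lay above mesPVAT, at 0.121%, and with numbered paralogues and other ribosomal subunit genes RP fat, at 0.133%, lay above taPVAT, at 0.130%. All intervals cover counting error only, and with 1 library per condition no difference was tested.

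Nuclei of a Parse library were barcoded in 2 or 3 wells and read in 2 sublibraries, which gives a technical spread. Over these aliquots the share ran from 0.120% to 0.141% in mesPVAT (mean 0.128 ± 0.00875, SD, n = 4) and from 0.0813% to 0.130% in RP fat (0.110 ± 0.0225, n = 4). The BAT aliquots lay between 0.0752% and 0.0904% (0.0804 ± 0.00566, n = 6) and those of taPVAT between 0.0996% and 0.110% (0.105 ± 0.00401, n = 6). Cow WAT ran from 0.0546% to 0.0582% (0.0562 ± 0.00181, n = 4). All aliquots of cow WAT were below all aliquots of every rat library, and all of taPVAT were above all of BAT. The RP fat aliquots overlapped those of mesPVAT, taPVAT and BAT. In RP fat the lowest aliquots were both from well A9, at 0.0813% and 0.103%, and those from well A10 were at 0.125% and 0.130%.

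**Figure D1:**
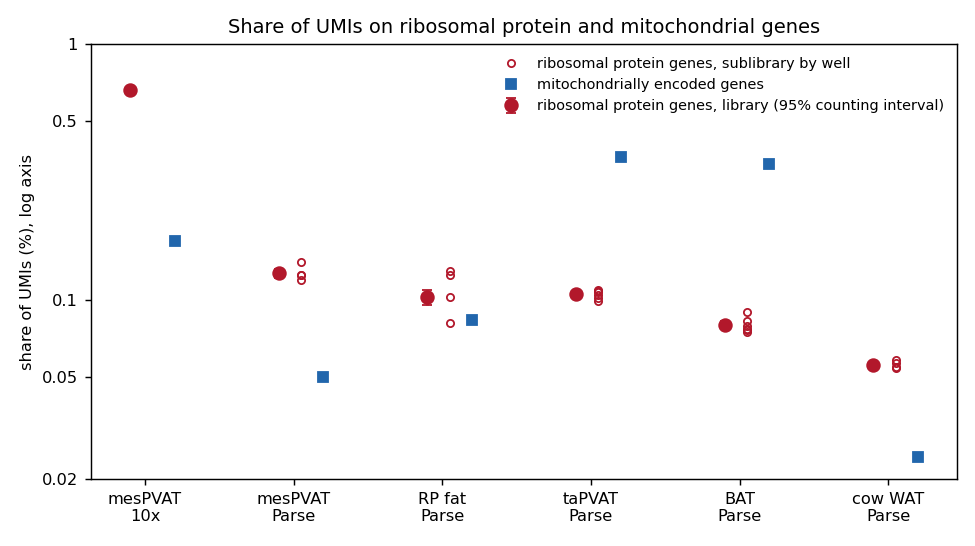
Share of UMIs (%, log axis) on ribosomal protein genes in each library (filled circles, with 95% counting intervals) and in each sublibrary by well of the Parse libraries (open circles), with the share on mitochondrially encoded genes (squares). The ribosomal protein share was 0.664% in 10x mesPVAT and 0.0561% to 0.127% in the Parse libraries, while the mitochondrial share was highest in taPVAT (0.363%) and BAT (0.340%).

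The mitochondrial share ordered the libraries in another way. It was 0.363% in taPVAT and 0.340% in BAT, 0.170% in 10x mesPVAT, 0.0839% in RP fat, 0.0504% in mesPVAT on the Parse kit and 0.0246% in cow WAT. Thus 10x mesPVAT had 3.38 times the mitochondrial share of Parse mesPVAT but 0.469 times that of taPVAT. Both shares were lowest in cow WAT.

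Other gene lists in the same libraries also differed. The abundant cytoplasmic mRNAs (Fth1, Tmsb4x, Ubb and the like, 7 to 10 features in each gene list) summed to 3884 CPM in 10x mesPVAT, 323 CPM in Parse mesPVAT, 256 CPM in RP fat, 568 CPM in taPVAT, 438 CPM in BAT and, lowest, 205 CPM in cow WAT. The translation factors and other TOP mRNAs (14 features in each gene list) had 1725, 799, 526, 838, 740 and 495 CPM in the same order of libraries. The ribosome biogenesis factors, which build ribosomes in the nucleolus, had 1247, 986, 761, 885, 794 and 660 CPM. The mitochondrial ribosomal proteins, nuclear genes for the ribosome inside mitochondria, had 1264, 794, 715, 1203, 1208 and 972 CPM. The 10x library was thus far above Parse mesPVAT for the ribosomal proteins and the abundant cytoplasmic mRNAs and less so for the biogenesis factors and mitochondrial ribosomal proteins. Among the biogenesis factors Dkc1 alone had 308 CPM in 10x mesPVAT and 7.85 CPM in Parse mesPVAT, a wider gap than that between the sums of this list. The higher sum in the 10x library thus rests on this gene. None of the 4 nuclear-retained RNAs Malat1, Neat1, Meg3 and Kcnq1ot1 was listed by that symbol in any library. The gene lists also differ in which abundant mRNAs they hold: Tpt1, a TOP mRNA with 422 CPM in the 10x library, had no entry in the rat Parse list, and nor had Actb (764 CPM) and Tmsb10 (647 CPM) of the abundant cytoplasmic mRNAs. Over the 7 abundant mRNAs in both lists, a setting chosen after seeing the data, the sums were 2473 CPM in 10x and 311 CPM in Parse mesPVAT, a ratio of 7.94 (7.23 to 8.73).

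Most nuclei held few ribosomal protein UMIs. No such UMI was found in 40.7% of nuclei in 10x mesPVAT, 62.3% in Parse mesPVAT, 77.9% in RP fat, 31.5% in BAT, 30.1% in taPVAT and 20.8% in cow WAT. The median nucleus held 1 in 10x mesPVAT, taPVAT and BAT, 2 in cow WAT and 0 in Parse mesPVAT and RP fat. These counts follow depth, so nuclei were also thinned to 200 UMIs each, which left out 3788 of 5887 nuclei of 10x mesPVAT, 476 of Parse mesPVAT, 1302 of RP fat and 0 of the other libraries. At this depth a ribosomal protein UMI was in 55.5% of nuclei in 10x mesPVAT (exact binomial interval 53.3 to 57.6), 19.4% in Parse mesPVAT (17.9 to 21.0), 17.7% in RP fat (15.8 to 19.7), 15.2% in BAT (13.8 to 16.6), 19.3% in taPVAT (17.8 to 20.9) and, lowest, 11.5% in cow WAT (10.3 to 12.9). Without thinning it was in 59.3%, 37.7%, 22.1%, 68.5%, 69.9% and 79.2% of nuclei in the same order. Cow WAT was thus highest without thinning and lowest at equal depth.

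High shares in single nuclei were a feature of the 10x library. There 561 of 5887 nuclei were above 2% and 77 above 5%, with a highest share of 14.4%, whereas 1 nucleus of all Parse libraries was above 2%. The nucleus with most ribosomal protein UMIs held 91 of 958 UMIs in the 10x library, and in cow WAT it held 96 of 162490 UMIs. The 77 nuclei above 5% had a median of 131 UMIs and a mitochondrial share of 0.216%, against 161 UMIs and 0.170% over all nuclei of that library. At 200 UMIs the variance of the ribosomal protein count over its mean was 2.78 in 10x mesPVAT and 1.02 to 1.15 in the Parse libraries, where a count with no spread beyond sampling gives a ratio near 1. The mean counts differed too, at 1.16 in 10x mesPVAT and 0.124 to 0.230 in the Parse libraries. At the same relative spread this ratio is larger where the mean is higher, so its size cannot be compared directly.

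The relation to the UMI total was followed in quintiles (5 groups of equal size) of nuclei ranked by their UMIs of other genes, so that the measure was not part of its own ranking. In 10x mesPVAT the share was 0.903% in the quintile with the fewest UMIs (interval 0.849 to 0.960), then 0.873%, 0.861% and 0.689%, and 0.471% in the quintile with the most (0.452 to 0.489). In taPVAT it was 0.169% (0.153 to 0.186), 0.140%, 0.117%, 0.0990% and 0.0941% (0.0904 to 0.0979). In BAT it was 0.121% (0.110 to 0.134), 0.0947%, 0.0809%, 0.0701% and 0.0780% (0.0749 to 0.0812). These 3 libraries fell from the bottom to the top quintile, with ratios of top over bottom of 0.521 (0.484 to 0.561), 0.557 (0.501 to 0.619) and 0.644 (0.579 to 0.717).

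In the other libraries the top and bottom quintiles lay close together. In Parse mesPVAT the share was 0.140% (0.118 to 0.163) in the bottom quintile, then 0.109%, 0.108% (0.0943 to 0.123) and 0.116%, and 0.138% (0.131 to 0.146) in the top quintile. It was thus lower in the middle, and the intervals of the middle and top quintiles did not overlap. The ratio of top over bottom was 0.991 (0.838 to 1.18) in Parse mesPVAT, 1.15 (0.866 to 1.55) in RP fat and 0.932 (0.842 to 1.03) in cow WAT, and each interval included 1. In sublibrary 1 of cow WAT alone it was 0.804 (0.702 to 0.925). Without the mitochondrial genes and the gene with the most UMIs in the denominator, a setting chosen after seeing the data, the cow ratio was 0.788 (0.712 to 0.874), and the other ratios stayed within their intervals. The top gene, ENSBTAG00000066082, took 22.8% of the UMIs in the bottom quintile of cow nuclei and 8.65% in the top quintile.

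**Figure D2:**
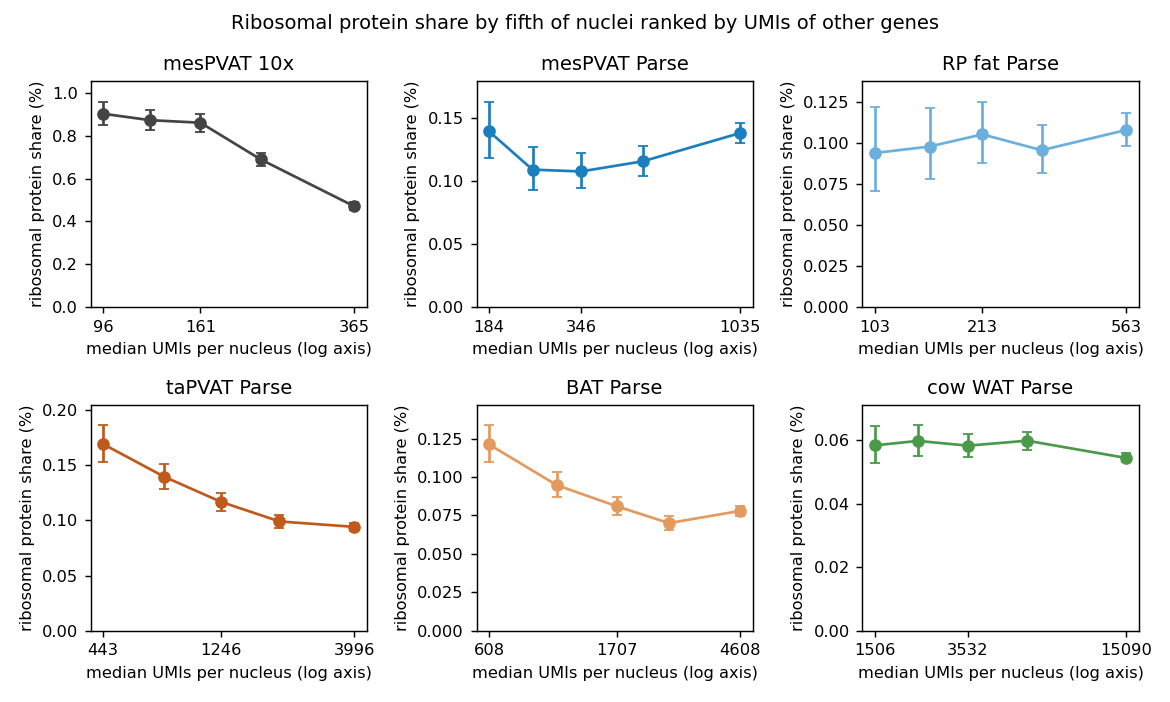
Ribosomal protein share of UMIs (%, linear axis from 0, a scale of its own in each panel) in quintiles of nuclei against the median UMIs per nucleus of the quintile (log axis), with 95% counting intervals. The share fell from 0.903% to 0.471% in 10x mesPVAT, from 0.169% to 0.0941% in taPVAT and from 0.121% to 0.0780% in BAT, and lay between 0.0543% and 0.0598% in all quintiles of cow WAT.

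The mitochondrial share fell with UMIs in all 6 libraries, with ratios of top over bottom quintile between 0.242 in cow WAT and 0.445 in RP fat. It thus fell also where the ribosomal protein share did not. The other lists moved less in the libraries where the ribosomal protein share fell: the ratio for the ribosome biogenesis factors was 0.920 in 10x mesPVAT, 0.793 in taPVAT and 1.01 in BAT, and that for the abundant cytoplasmic mRNAs was 0.884, 0.697 and 0.785. The mitochondrial ribosomal proteins had 0.919, 1.24 and 1.20. Over single nuclei, Spearman's correlation of the ribosomal protein share with the UMIs of other genes lay between −0.0435 and 0.238 in the 6 libraries (2297 to 5887 nuclei of 1 library each). These values are weak and are no finding. Many nuclei with few UMIs hold a share of exactly 0.

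In the brown depots the ribosomal protein share rose with the mitochondrial share of the nucleus. Ranked by mitochondrial share, the bottom quintile of taPVAT nuclei (no mitochondrial UMI) had a ribosomal protein share of 0.0719% (0.0653 to 0.0791), and the top quintile, at 1.47% mitochondrial UMIs, had 0.200% (0.189 to 0.211). In BAT the values were 0.0547% (0.0501 to 0.0595) and 0.135% (0.128 to 0.142) at mitochondrial shares of 0.00234% and 1.24%. Intervals of the bottom and top quintiles did not overlap in either library. Depth also differed: from the bottom to the top quintile, median UMIs were 808, 2160.5, 1422, 1573 and 776 in taPVAT and 1504.5, 2515, 1652.5, 1686 and 1246 in BAT, and their part in the result was not tested. Spearman's correlation between these shares over nuclei was 0.347 in taPVAT and 0.262 in BAT, and 0.0215 to 0.106 in the other libraries. Mitochondrial UMIs numbered 2110 in 5887 nuclei of 10x mesPVAT, 835 in 3028 of Parse mesPVAT and 709 in 2805 of RP fat. Most nuclei of these white rat libraries thus had none, which limits the correlation there. Quintiles by mitochondrial share were made in the brown depots only, so the relation is not shown to be particular to them.

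The same order held within named classes of nuclei. From the bottom to the top quintile by mitochondrial share, the ribosomal protein share was 2.43 times higher in endothelial-like nuclei of taPVAT (1.97 to 3.01) and 2.24 times in those of BAT (1.89 to 2.65). It was 1.61 times higher in adipocyte-like nuclei of BAT (1.38 to 1.87), 1.77 times in stromal progenitor-like nuclei (1.297 to 2.44) and 1.81 times in immune-like nuclei (1.20 to 2.82) of taPVAT. Both shares are taken of the same UMI total. Empty barcodes were not used here, so the part of free RNA was not tested.

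Classes of nuclei came from clusters made in each library without the members and the mitochondrial genes, so that the clusters did not use the measure. Clusters were called adipocyte-like, endothelial-like and so on from marker lists, and clusters that missed the rule stayed unnamed. In 10x mesPVAT 3649 of 5084 nuclei were unnamed, in Parse mesPVAT 1543 of 3011, in RP fat 2395 of 2602, in taPVAT 1321 of 2637, in BAT 167 of 2627 and in cow WAT 157 of 2008. RP fat gave 1 named class, and in taPVAT the clusters led by brown adipocyte genes were among the unnamed.

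Adipocyte-like nuclei had the lowest share of the named classes in the 3 Parse libraries with several classes that include them. Clusters within a class varied. In cow WAT a stromal progenitor-like cluster was at 0.0435% (0.0362 to 0.0517) and an immune-like cluster at 0.0438% (0.0365 to 0.0521), as low as adipocyte-like nuclei. The endothelial-like clusters of cow WAT ran from 0.0513% to 0.0827%. Named 1 nucleus at a time, immune-like nuclei of Parse mesPVAT were at 0.0995% (0.0789 to 0.124) and adipocyte-like nuclei at 0.103% (0.0937 to 0.112), which overlap. In BAT it was 0.0606% in 1407 adipocyte-like nuclei (0.0580 to 0.0633) and 0.105% in 780 endothelial-like nuclei (0.101 to 0.111), a ratio of 1.74 (1.63 to 1.86). In Parse mesPVAT it was 0.101% in 555 adipocyte-like nuclei (0.0921 to 0.111) and 0.175% in 235 endothelial-like nuclei (0.152 to 0.201), a ratio of 1.73 (1.46 to 2.05). In cow WAT it was 0.0458% (0.0410 to 0.0511) and 0.0618% (0.0588 to 0.0650), a ratio of 1.35 (1.20 to 1.53). In 10x mesPVAT these classes had 0.343% (0.318 to 0.370) and 0.329% (0.289 to 0.372), and the interval of their ratio, 0.957, ran from 0.824 to 1.11. Named 1 nucleus at a time from its own markers, the 10x ratio was 0.777 (0.659 to 0.911), and the Parse ratios were 1.32 to 2.11, of which that of RP fat, 1.32, had an interval from 0.919 to 1.90.

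**Figure D3:**
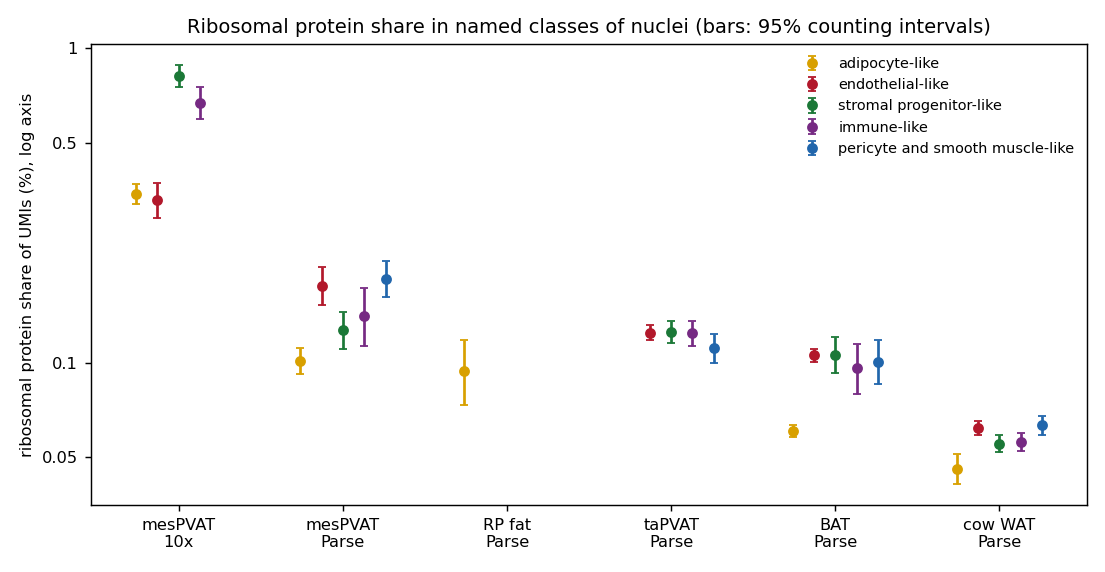
Ribosomal protein share of UMIs (%, log axis) in the named classes of nuclei in each library, with 95% counting intervals. Adipocyte-like nuclei were at 0.0606% in BAT, 0.101% in Parse mesPVAT and 0.0458% in cow WAT, below the other classes of the same library.

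The classes also differed in depth and in mitochondrial share. In BAT adipocyte-like nuclei had a median of 2054 UMIs and 0.194% mitochondrial UMIs, and endothelial-like nuclei had 1250 UMIs and 0.505%. Within a class of BAT the fall with depth remained, with ratios of top over bottom quintile of 0.731 (0.617 to 0.871) in adipocyte-like and 0.650 (0.541 to 0.786) in endothelial-like nuclei. In taPVAT the ratio within a class was 0.896 (0.699 to 1.17) in endothelial-like, 1.03 (0.705 to 1.57) in stromal progenitor-like and 0.979 (0.651 to 1.53) in immune-like nuclei, and each interval included 1, unlike that over the whole library. The 1321 unnamed nuclei of taPVAT were not followed as a class. In 10x mesPVAT the ratio was 0.654 (0.509 to 0.848) in adipocyte-like and 0.725 (0.557 to 0.951) in stromal progenitor-like nuclei. It was 0.774 (0.493 to 1.25) in endothelial-like and 0.783 (0.556 to 1.12) in immune-like nuclei of that library, and these intervals included 1.

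Some clusters stood far from the rest of their library. In 10x mesPVAT an unnamed cluster of 379 nuclei had a share of 1.68%, against 0.329% to 1.12% in the other 15 clusters, and 4 of its 10 leading genes were members. Its leading genes also held the macrophage genes Mrc1 and C1qa and the short cytoplasmic mRNAs Tpt1 and Tmsb4x. In taPVAT a cluster of 114 nuclei led by the striated muscle genes Myh6, Ttn and Ryr2 had a ribosomal protein share of 0.254% and a mitochondrial share of 1.21%, against 0.0723% to 0.131% and 0.185% to 0.501% in the other 12 clusters. The stromal progenitor markers Pdgfra, Col1a1, Col3a1, Lama2, Fbn1, Negr1 and Gsn were also raised in this taPVAT cluster. Its leading genes also held Robo4, Col6a1 and Hba-a2, so it was mixed. Without this cluster, the taPVAT ratio of top over bottom quintile by UMIs was 0.624 (0.558 to 0.699), and that by mitochondrial share was 2.47 (2.21 to 2.77).

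Members differed widely in UMIs. No gene list held every symbol: 7 of the 81 had no entry in the 10x list, 14 in the rat Parse list, which all 4 rat Parse libraries share, and 16 in the cow list. Among them were Rpl7 and Rpl8 in the 10x list, Rplp1, Rps3 and Rps24 in the rat Parse list and Rpl4 and Rps6 in the cow list. A share of a whole list is therefore a share of the symbols that the list holds. Numbered paralogues outside the rule (symbols that end in l and a number) added 20.2 to 28.5 UMIs per 100 member UMIs in the rat Parse libraries, 4.80 in the 10x library and 5.90 in cow WAT. Over the 52 symbols in all lists the share was 0.525% in 10x mesPVAT, 0.0924% in Parse mesPVAT, 0.0803% in taPVAT, 0.0728% in RP fat, 0.0607% in BAT and 0.0426% in cow WAT.

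In the 10x library, which counts 3′ ends, the members with most UMIs included Rpsa, a small subunit protein also known as the laminin receptor (632 CPM), Rplp2 (534 CPM), Rps14 (410 CPM) and Rplp0 (398 CPM). The leading 5 held 36.5% of the ribosomal protein UMIs. In the white rat Parse libraries 5 large subunit genes led. They were Rpl7, Rpl4, which lines the exit tunnel, Rpl13a, Rpl3, close to the peptidyl transferase centre, and Rpl10l. In taPVAT and BAT, Rplp2 was among the leading members beside Rpl7, Rpl4 and Rpl13a. In cow WAT RPSA (26.5 CPM), RPS24 (22.3 CPM), RPL11 (20.9 CPM) and RPS3A (18.1 CPM) were among them. Large subunit genes held 45.7% of the ribosomal protein UMIs in the 10x library and 62.1% to 70.5% in the rat Parse libraries, where the lists differ in the symbols they hold.

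Per kb of RefSeq gene span, Rpl7 had 42.5 CPM per kb in Parse mesPVAT, 46.8 in RP fat, 18.2 in taPVAT and 13.6 in BAT, and Rpl13a had 33.3, 24.5, 16.7 and 12.6 CPM per kb in the same order. Rplp2, of the P stalk, had 13.3, 7.75, 21.5 and 15.2 CPM per kb. Per length, Rpl7 led in the white depots and Rplp2 in taPVAT.

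**Figure D4:**
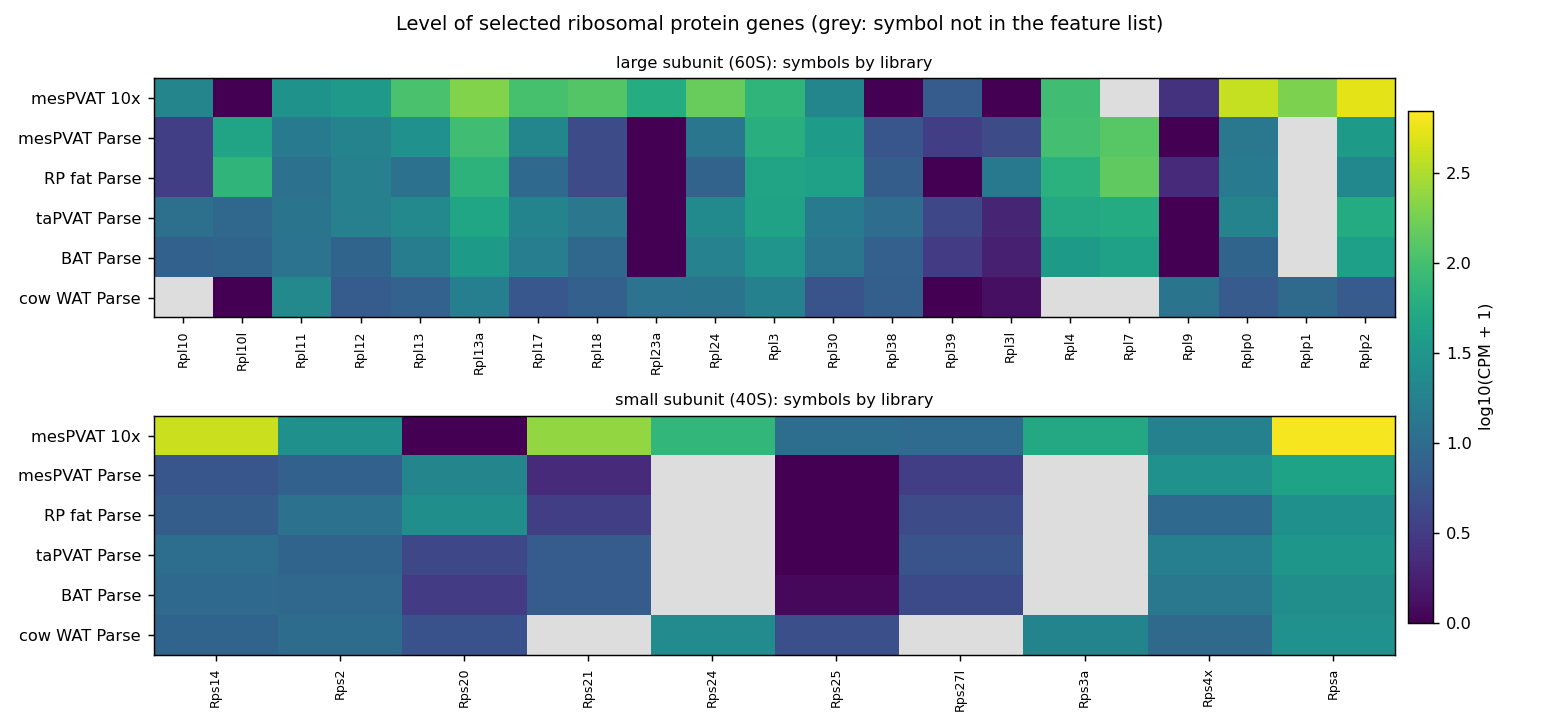
Level of ribosomal protein genes described in the text (columns, large subunit above and small subunit below) in each library (rows) as log10(CPM + 1), with grey where the symbol was not in the gene list. The 10x row is brightest at Rpsa (632 CPM) and Rplp2 (534 CPM), and Rpl10l and Rpl7 are brighter in the white than in the brown rat Parse rows.

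The P stalk recruits the GTPase factors of translation to the large subunit. Rplp0, its base, had 398 CPM in 10x mesPVAT (exact Poisson interval 363 to 434), 12.7 (7.85 to 19.4) in Parse mesPVAT, 14.2 (7.34 to 24.8) in RP fat, 7.28 (5.33 to 9.71) in BAT, 17.6 (14.2 to 21.7) in taPVAT and, lowest, 5.53 (4.46 to 6.77) in cow WAT. Rplp2 had 534, 34.4, 20.1, 39.6, 55.7 and 5.53 CPM in the same order of libraries. Rplp1 had 191 CPM in 10x mesPVAT and 8.56 CPM in cow WAT. The rat Parse counts of Rplp2 were above those of Rplp0 in all 4 libraries. In cow WAT both genes had 93 UMIs.

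The tissue-restricted paralogues Rpl3l and Rpl10l were low or uncertain. Rpl3l, the striated muscle paralogue of Rpl3, had 13.01 CPM in RP fat (11 UMIs, interval 6.50 to 23.3), 3.62 CPM in Parse mesPVAT and 0.297 to 0.980 CPM in the brown depots and cow WAT, and 0 UMIs in 10x mesPVAT. Rpl10l, an autosomal paralogue of the X-linked Rpl10 known from testis, had 44.7 CPM in Parse mesPVAT, 71.0 in RP fat, 8.23 in taPVAT and 7.28 in BAT, and 0 UMIs in 10x mesPVAT and cow WAT. Counts of such near-identical copies depend on how reads that match several of them were assigned, and are uncertain. Rps27l had 2.41 to 8.89 CPM in the rat libraries. Rpl36al and Rpl39l were listed only by the 10x annotation and had 0 UMIs, and Rps4y had no entry in any list. Rps4x, the X-linked small subunit gene, had 17.0 CPM in 10x mesPVAT, 26.6, 8.28, 15.9 and 12.7 CPM in the rat Parse libraries and 8.68 CPM in cow WAT.

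Some members were at 0 UMIs in a whole library. Rpl23a, at the exit of the tunnel, had 0 UMIs in all 4 rat Parse libraries, but had 56.6 CPM in 10x mesPVAT and 11.2 CPM in cow WAT. The limit of 3 counts is 0.475 CPM in BAT and 3.55 CPM in RP fat, and the exact Poisson upper limits are 0.584 and 4.36 CPM. Rpl9 had 0 UMIs in Parse mesPVAT, taPVAT and BAT, and Rps25 had 0 in Parse mesPVAT, RP fat and taPVAT. Rpl36a was at 0 in taPVAT, and Rpl39 in RP fat and cow WAT. In the 10x library Rpl38 and Rps20 were at 0, as were the paralogues Rpl10l, Rpl36al, Rpl39l and Rpl3l. There 3 counts are 2.42 CPM and the exact Poisson upper limit is 2.98 CPM. Rps20 had 18.7 and 24.8 CPM in the white rat Parse libraries. Reads of these genes may have been counted on copies of the gene or dropped as matching several, which was not tested.

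Introns of ribosomal protein genes often hold snoRNAs, which guide the modification of ribosomal RNA. Of 78 members matched in RefSeq with a span of at most 100 kb, 30 held at least 1 annotated snoRNA (59 in all), against 256 of 20595 protein-coding genes. In the rat Parse libraries 24 of 65 members were hosts. They held 56.1% of the UMIs of these members in mesPVAT (interval 53.9 to 58.3), 52.0% in RP fat, 51.8% in taPVAT and 50.7% in BAT (49.3 to 52.1), with 33.7% of the summed span. Per kb this was 8.38 CPM for hosts and 3.33 CPM for other members in mesPVAT, 6.04 and 2.83 in RP fat, 6.57 and 3.11 in taPVAT and 4.90 and 2.42 in BAT. In the 10x library 29 of 70 members were hosts, with 50.5% of the UMIs, 38.7% of the span and 32.0 against 19.8 CPM per kb. Hosts were thus above other members per length in all 5 rat libraries. Of the 10 members with most UMIs among those matched in RefSeq, 8 or 9 were hosts in each rat Parse library and 5 in the 10x library. Rpl10l, among the leading members of the white rat Parse libraries, had no match and is left out of this ranking. Rpl4 held 5 and Rpl13a 4 snoRNAs, while Rpl7 held none in this annotation. Whether these UMIs came from exons or introns cannot be read from counts per gene.

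**Figure D5:**
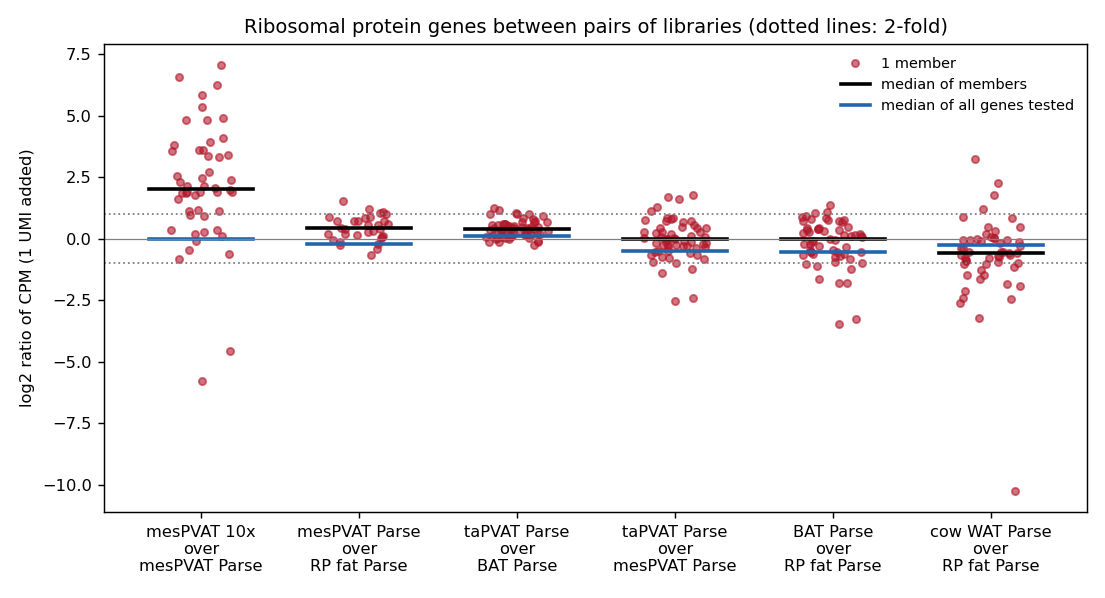
Difference of each member between 6 pairs of libraries, as the log2 ratio of CPM after adding 1 UMI to each sum (1 point per member with at least 30 UMIs in the pair), with the median of the members (black) and of all genes tested (blue). The member median is at 2.03 in 10x over Parse mesPVAT, where that of all genes is at 0.01, and dotted lines mark a 2-fold difference.

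Between the kits, 10x mesPVAT was set against Parse mesPVAT. Of 61 members in both lists, 50 had at least 30 UMIs over the pair. Of these, 37 were at least 2-fold higher in the 10x library, where 24.0% of all 10588 genes tested were, and 2 were at least 2-fold lower, where 28.4% of all genes were. The median log2 ratio was 2.03 for the members and 0.01 for all genes tested. The difference was uneven between members. Rps21 had 239 CPM in the 10x and 1.21 CPM in the Parse library, 198 times more on 2 Parse UMIs (interval 54.4 to 1644). Rps14, of the small subunit, had 410 and 4.83 CPM, 84.8 times more (42.7 to 198). Rpl23a had 70 UMIs against 0, at least 31.2-fold higher with the limit of 3 counts in the Parse library (lower limit of the exact interval 24.7). Rpl4 had 92.1 and 97.8 CPM, a ratio of 0.942 (0.735 to 1.20). In the other direction Rpl10l was at least 18.4-fold lower and Rps20 at least 7.72-fold lower in the 10x library, with 3 counts there as the limit (lower limits of the exact intervals 14.6 and 5.91), and Rpl30 had 19.4 against 35.0 CPM. Over the 61 shared members, Spearman's correlation of the CPM profiles was 0.331 between these libraries, and 0.703 to 0.927 between the rat Parse libraries over 67 members, which share kit and annotation.

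Within the white rat depots, Parse mesPVAT was compared with RP fat. Of 32 members tested, 5 were at least 2-fold higher in mesPVAT, where 5.23% of 15055 genes were, and 0 were at least 2-fold lower, where 7.53% were. The member median log2 ratio was 0.42 and that of all genes −0.23. The mesPVAT library was the deeper one, and adding 1 UMI then lowers the ratio of low-count genes. At a minimum of 100 UMIs 8.12% of genes were higher and 2.23% lower in mesPVAT (0 and 0 of 5 members). Rps4x had 26.6 against 8.28 CPM, 3.21 times more (1.43 to 8.44), Rpl13 had 26.6 against 10.6 CPM, 2.49 times more (1.20 to 5.81), and Rpl17 had 19.3 against 8.28 CPM, 2.33 times more (1.01 to 6.26). Each rests on 7 to 9 UMIs in RP fat. At the other end Rpl10l was 1.59 times lower in mesPVAT (1.11 to 2.26), while the intervals of Rps20, 1.33 times lower, and Rpl30, 1.18 times lower, included 1.

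Between the brown depots the members lay close together and mostly on one side. Of 62 members tested, 56 were higher in taPVAT than in BAT, where 62.6% of 16228 genes were. At least 2-fold higher were 6, where 4.49% of all genes were, and 0 were at least 2-fold lower, where 0.616% were. With median-ratio scaling 2 of 62 were at least 2-fold higher, where 3.46% of all genes were. The median log2 ratio was 0.40 for the members and 0.10 for all genes. Rplp0 had 17.6 against 7.28 CPM, 2.42 times more (1.68 to 3.54), and Rpl12, which sits beside it at the stalk base, had 16.3 against 7.28 CPM, 2.24 times more (1.54 to 3.28). Rpl8 was 1.21 times and Rps2 1.11 times lower in taPVAT, and their intervals included 1.

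Between brown and white depots, where the centrifuge speed for taPVAT also differed from that for white fat, the members split. In taPVAT against Parse mesPVAT, 5 of 59 members were at least 2-fold higher, where 9.98% of 16956 genes were, and 4 were at least 2-fold lower, where 39.7% were. The member median was −0.01 on the log2 scale and that of all genes −0.48. In BAT against RP fat 3 of 58 members were at least 2-fold higher, where 16.6% of 16151 genes were, and 8 were lower, where 43.1% were, with medians of −0.03 and −0.53. Adding 1 UMI lowers the ratio of low-count genes where the first library is deeper, as here. At a minimum of 100 UMIs, 14.8% of genes were higher and 21.3% lower in taPVAT against mesPVAT (0 and 3 of 29 members). In BAT against RP fat 25.9% were higher and 22.3% lower (1 and 3 of 23 members). Rps20 and Rpl10l had the lowest ratios in both pairs, which share no library. Rps20 was 5.96 times lower in taPVAT than in mesPVAT (3.16 to 11.7) and 11.2 times lower in BAT than in RP fat (5.44 to 23.8). Rpl10l was 5.42 times (3.67 to 8.12) and 9.75 times lower (6.53 to 14.6), and Rpl30 was 2.63 times (1.82 to 3.78) and 3.40 times lower (2.21 to 5.13). Rpl7 was 2.33 times (1.94 to 2.80) and 3.43 times lower (2.74 to 4.28), level with Rpl30 in BAT against RP fat.

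Higher members rested on fewer UMIs. Rpl10, which completes large subunit maturation, had 10.2 CPM in taPVAT against 2.41 CPM in mesPVAT, 4.22 times more (1.55 to 16.1). Rps21 was 4.71 times (1.19 to 40.7) and Rpl18 3.46 times higher (1.51 to 9.79) in the same pair. In BAT against RP fat they were Rpl36 at 5.08 times (0.859 to 206), Rpl24, which bridges the subunits, at 2.43 times (1.08 to 6.77), and Rpl15 at 4.01 times (0.667 to 164). The intervals of Rpl36 and Rpl15 included 1, on 1 UMI each in RP fat.

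Between species, cow WAT was set against rat RP fat by symbol, with a gene list, a genome and a depth that all differ. Filters and tissue input of the isolation differed as well. The RP fat library also stands in the comparisons with mesPVAT and BAT above. Of 55 symbols in both lists 53 were tested. At least 2-fold higher in cow were 4, where 16.9% of 13036 genes were, and at least 2-fold lower were 16, where 32.7% were. At a minimum of 100 UMIs 20.4% of genes were higher and 22.8% lower (3 and 8 of 38 members). The member median log2 ratio was −0.57 and that of all genes −0.24. RPL30 was 9.29 times lower in cow WAT (6.03 to 14.1) and RPS20 5.97 times (3.48 to 9.84), and Rpl10l was at least 398-fold lower with 3 counts as the limit in cow WAT (lower limit of the exact interval 314). RPL23A was at least 3.15-fold higher, with 3 counts as the limit in RP fat (lower limit of the exact interval 2.54). RPS25 had 67 UMIs in cow WAT against 0 in RP fat, and its exact interval, from 0.888 times upward, included 1, and RPL9 was 9.54 times higher on 1 UMI in RP fat (1.69 to 379). RPSA, at 26.5 against 26.0 CPM, had a ratio of 1.02 (0.664 to 1.64).

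Member by member, the difference between classes of nuclei in BAT was broad. Of 44 members tested, 40 were higher in endothelial-like than in adipocyte-like nuclei, where 56.6% of 11038 genes were. At least 2-fold higher were 16, where 19.2% of all genes were, and 0 were at least 2-fold lower, where 6.82% were. The member median log2 ratio was 0.78 and that of all genes 0.13. The highest ratios, chosen after their values were seen, were those of Rps16 (22.8 against 6.63 CPM, interval 1.97 to 6.12), Rpl21 (44.3 against 15.4 CPM, 1.99 to 4.21) and Rplp0 (12.3 against 4.22 CPM, 1.40 to 6.25). Rpl7, with 64.0 and 25.6 CPM, was 2.50 times higher (1.86 to 3.37), and Rplp2, with 40.01 and 41.6 CPM, had a ratio of 0.962 (0.705 to 1.301). The stalk genes Rplp0 and Rplp2 thus had intervals that did not overlap.

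In cow WAT 14 of 24 members tested were higher in endothelial-like nuclei, where 50.9% of 10119 genes were. At least 2-fold higher were 3, where 18.6% of all genes were, and 1 was at least 2-fold lower, where 15.5% were. All of these, named after their values were seen, rest on few adipocyte UMIs. RPS19 was 4.87 times (1.25 to 41.8) and RPL8 3.43 times higher (1.09 to 17.4). RPL3 had 19.9 against 7.14 CPM (1.12 to 8.93 times), and RPL10A was lower at 9.13 against 24.3 CPM (0.192 to 0.750 times). In Parse mesPVAT 4 members had enough UMIs and all were higher in endothelial-like nuclei, where 59.7% of 3713 genes were. The intervals of Rplp2, at 1.09 times (0.398 to 2.61), and Rpl4, at 1.62 times (0.777 to 3.21), included 1. Of the 4, 2 were at least 2-fold higher, where 15.3% of all genes were, and 0 were at least 2-fold lower, where 11.1% were. The 2 higher ones were Rpl13a, with 179 against 70.4 CPM, and Rpl7, with 162 against 68.1 CPM. Rpl7 thus had higher levels in endothelial-like than in adipocyte-like nuclei of a white and of a brown depot. In 10x mesPVAT 7 members were tested. None of them was at least 2-fold higher in endothelial-like nuclei, where 19.3% of 2238 genes were, and 1 was at least 2-fold lower, where 24.7% were. This was Rplp2, with 93.1 CPM in endothelial-like and 335 CPM in adipocyte-like nuclei (ratio 0.278, interval 0.108 to 0.604).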

How the data were processed

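Nuclei of 6 libraries, 1 per condition, were analysed from UMI counts per gene and barcode. The authors deposited these counts without normalization, from split-pipe on GRCr8 or ARS-UCD1.3 for the Parse libraries and from Cell Ranger for the 10x library, for which the study names Rnor_6.0. Some gene IDs of the 10x list look newer than that build, so which annotation it follows was not settled here, and this bears on which members it holds. Members, gene lists and tests were chosen with earlier results of these data known. Features that share a symbol were summed. Levels are CPM of summed UMIs. Shares have exact binomial, sums exact Poisson and ratios exact conditional binomial intervals at 95%. No test between conditions was possible. Folds between libraries used genes with at least 30 UMIs in the pair, and called means at least 2-fold after adding 1 UMI. Quintiles of nuclei were ranked by UMIs of other genes. Clusters used nuclei with 100 to 15000 UMIs, at most 4500 genes and 3% mitochondrial UMIs, within 5 median absolute deviations, genes in more than 3 nuclei, counts scaled to 1000 UMIs per nucleus, 2000 variable genes, 30 components, 15 neighbours and Leiden resolution 1.0 (scanpy 1.11.5, igraph 0.11.9, seed 20).

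A cluster was named from 8 lists of markers. At least 3 markers, more than 1 in 3 of those in the gene list and more than in any other list, had to be raised. Raised meant at least 2-fold above the median of the other clusters, in at least 5% of its nuclei and with at least 10 UMIs. Its median UMIs had to reach the library's median divided by 3, unless a marker of that list was among its 10 leading genes. It stayed unnamed where its 10 leading genes went against the name. As added after seeing the clusters, it also stayed unnamed where these held at least 3 striated muscle genes. Doublets were not called. The genes named are the 5 members with most UMIs per library, members at 0 UMIs, the stalk genes, Rpsa and the paralogues, the 3 largest differences per pair in each direction, and the genes of the comparison lists. Some genes that this rule selects are not reported here. Rpl7, Rpl4 and RPSA beside the pairs, and the members named between classes, were added after their values were seen. Total counts per library ran from 845316 to 16827260. Share intervals, folds, quintile ratios and thinning were tested on simulated data, the folds with libraries of equal depth only. Clusters, their names, snoRNA hosts and start regions were not tested in this way. Gene spans, snoRNAs and start sequences are from RefSeq tables of GRCr8, and no genome was used.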

Additional observations from a re-analysis of the deposited data

Results flagged for a closer look

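UMIs on features with -ps symbols, which the member rule leaves out, were above the limit that a count of 0 allows in all 5 rat libraries. They numbered 543 on 61 such features in 10x mesPVAT (0.0439% of all UMIs), and on 54 features 390 in Parse mesPVAT (0.0235%), 199 in RP fat (0.0235%), 628 in taPVAT (0.0123%) and 617 in BAT (0.00977%). Per 100 UMIs of members this was 6.61 in the 10x library and 18.5, 22.9, 11.7 and 12.1 in the rat Parse libraries in that order. The cow list held no -ps feature. Whether these UMIs came from the -ps loci or from reads of their parent genes was not tested.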

How the results depend on the processing

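With 1 library per condition, no result has a replicate, and intervals cover counting error only. No paired analysis was possible because each group has 1 library and no result comes from a test. The ratio of Parse mesPVAT over taPVAT, 1.21 over all UMIs (1.15 to 1.27), turned to 0.980 as the mean over nuclei. Values that moved beyond their interval, and counts that moved by over 1.5 times, follow. The cause was not tested. Values run in the order 10x mesPVAT, Parse mesPVAT, RP fat, taPVAT, BAT and cow WAT.

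The share of UMIs was 0.525%, 0.0924%, 0.0728%, 0.0803%, 0.0607% and 0.0426% over symbols in all lists, and 0.725%, 0.162%, 0.133%, 0.130%, 0.103% and 0.0625% with numbered paralogues, and other ribosomal subunit genes. As the mean over nuclei it was 0.755% and 0.121% in mesPVAT on the 10x and Parse kits, 0.0890% in BAT, 0.124% in taPVAT and, lowest, 0.0584% in cow WAT. Without mitochondrial genes and the top gene below the line it was 0.686%, 0.135%, 0.0920%, 0.120% and 0.0632% in these libraries, in that order. In nuclei with at least 500 UMIs it was 0.426%, 0.135% and 0.113% in the 3 white rat libraries, and with the study's filters it was 0.0584% in cow WAT. The ratio of 10x over Parse mesPVAT was 3.16 in nuclei with at least 500 UMIs and 6.23 as the mean over nuclei, that of 10x mesPVAT over cow WAT was 7.59 and 12.9, and that of Parse mesPVAT over taPVAT was 1.298 with at least 500 UMIs. The settings for these ratios were chosen after seeing the data.

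The ratio of top over bottom quintile was 0.576 in 10x mesPVAT ranked by total UMIs, 0.632 in taPVAT with the study's filters, 1.23 in Parse mesPVAT in sublibrary 2, and 0.804 in sublibrary 1 and 0.788 without mitochondrial genes and the top gene in cow WAT. Nuclei with a member UMI were 43.3%, 11.0%, 9.49%, 11.9%, 8.26% and 5.31% at 100 UMIs and 61.7%, 27.5%, 24.9%, 27.2%, 21.6% and 15.7% at 300 UMIs.

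Adipocyte-like nuclei of 10x mesPVAT had 0.467% at resolution 0.5 and 0.549% named alone, where endothelial-like nuclei had 0.427%. Endothelial-like nuclei of taPVAT had 0.134% at 0.5 and 0.132% alone, those of BAT 0.0980% at 0.5 and 0.0977% at 2.0, and those of Parse mesPVAT 0.216% alone. Adipocyte-like nuclei of BAT had 0.0703% alone. Some classes had no named cluster at another resolution and so have no value there. These were adipocyte-like nuclei of 10x mesPVAT and of BAT at 2.0, and endothelial-like nuclei of 10x mesPVAT at 0.5 and 2.0.

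The share of all genes tested that passed the same fold stands in parentheses. At a minimum of 100 UMIs, members at least 2-fold higher numbered 23 of 27 in 10x over Parse mesPVAT (28.1%), 0 of 5 in mesPVAT over RP fat (8.12%), 0 of 29 in taPVAT over mesPVAT (14.8%) and 1 of 23 in BAT over RP fat (25.9%), and lower members 0 of 27 between the kits (20.3%), 3 of 23 in BAT against RP fat (22.3%) and 8 of 38 in cow WAT against RP fat (22.8%). At a minimum of 10 UMIs 2 of 55 were lower in mesPVAT than RP fat (13.1%). With a fold of 1.5, higher members were 13 of 32 in mesPVAT over RP fat (13.9%), 16 of 62 in taPVAT over BAT (13.5%), 12 of 59 in taPVAT over mesPVAT (18.3%) and 12 of 58 in BAT over RP fat (25.4%). Lower ones were 4 of 50 in 10x against Parse mesPVAT (36.0%), 1 of 32 in mesPVAT against RP fat (27.3%), 12 of 59 in taPVAT against mesPVAT (47.5%), 16 of 58 in BAT (49.1%) and 26 of 53 in cow WAT (41.7%), both against RP fat. With median-ratio scaling higher members were 8 of 32 in mesPVAT over RP fat (9.37%), 2 of 62 in taPVAT over BAT (3.46%), 13 of 59 in taPVAT over mesPVAT (20.1%) and 13 of 58 in BAT over RP fat (28.3%), and lower ones 2 of 59 (33.1%) and 5 of 58 (36.8%) in the last pairs. With the study's filters 1 of 46 members was lower in 10x than Parse mesPVAT (27.6%).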
